A study of Mus musculus with 12 samples.

Results

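BAZ1A-deficient round spermatids were compared with heterozygous control spermatids on Illumina MouseWG-6 v2.0 arrays, which carry 45281 probes. The comparison holds 3 mutant (Baz1a-/-) and 3 control (Baz1a+/-) arrays, each with RNA of sorted round spermatids from a single mouse. A probe was included if its detection p-value was under 0.05 on at least 1 of these 6 arrays. This left 24862 probes, which carry 13673 named genes. The remaining 6 of the series' 12 arrays hold spermatocytes of the same mice. Mutants carry a Baz1a allele whose exon 6 was removed by crossing a floxed allele, from 1 embryonic stem cell clone, to Stra8-Cre mice. The deletion passed through the germ line, so all cells of the mutants lack the exon on both alleles, and controls carry it on 1 allele. No wild-type mouse was arrayed. Per the study's methods the mice were adults of 2 to 6 months on a mixed C57BL/6J and FVB/NJ background. Testes were dissociated with collagenase, trypsin and DNase I, and cells were sorted by fluorescence of the DNA dye Hoechst. The series describes 3 littermate pairs, but the sample labels do not say which mice were littermates.

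Round spermatids are the haploid cells that meiosis leaves behind. They transcribe a large set of testis-specific genes for the acrosome, the sperm tail and the later compaction of chromatin, in which transition proteins and then protamines take the place of histones. BAZ1A, also named ACF1, is the large subunit that partners the ISWI ATPase SNF2H in the nucleosome-spacing complexes ACF and CHRAC.

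The 6 arrays were similar in overall signal. Median probe signal was 104 to 118 on mutant arrays and 102 to 114 on control arrays. Between 36.2% and 41.4% of all probes were detected on mutant arrays, against 37.6% to 40.3% on control arrays. The median standard deviation between the arrays of a group was 0.26 on the log2 scale in mutants and 0.22 in controls. No probe of the array was named for or matched to Baz1a, so the genotype labels could not be checked against the deleted transcript. With 3 arrays a group, the number of arrays limits the precision. The p-values rest on the spread within groups, estimated jointly from the 6 spermatid arrays and 5 spermatocyte arrays. Arrays of the same mouse were treated as independent. The median difference of all 24862 probes, mutant minus control, was -0.04 log2, and differences are given without correction for it.

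A probe was called if it differed by at least 2-fold with an adjusted p under 0.05 (limma, Benjamini-Hochberg adjustment over all 28751 probes detected on any array of the fit). In all, 1158 probes, or 4.66% of those compared, were called between mutant and control spermatids. Of these, 825 (3.32% of all) were higher and 333 (1.34%) were lower in mutants, so that 71.2% of the calls were rises. The called probes named 658 genes that were higher and 282 that were lower. Rises were also larger. At 4-fold or more, 147 probes were higher and 21 lower. At 8-fold or more, 33 were higher and 2 lower, and at 16-fold or more, 9 were higher and 1 lower. The median log2 difference was 1.41 for higher and -1.23 for lower probes. Of the higher probes, 806 had all 3 mutant values above all 3 control values, and of the lower probes, 331 had all 3 mutant values below. Over all probes, whatever the test, 11.5% had mutant values wholly above and 13.4% wholly below. With no condition on fold, 1246 probes were higher and 919 lower at an adjusted p under 0.05.

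**Figure D1:**
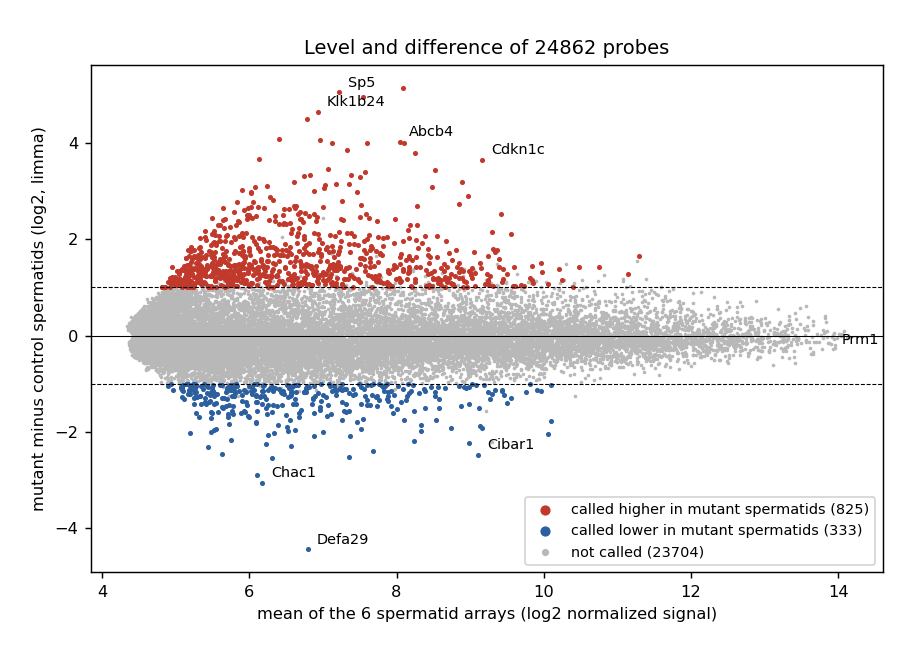
Each point is 1 of the 24862 probes. The horizontal axis gives its mean log2 normalized signal over the 6 spermatid arrays, and the vertical axis the log2 difference, mutant minus control. Dashed lines mark a 2-fold difference. The 825 red points (called higher) reach further from 0 than the 333 blue points (called lower), and the probes of highest signal, such as that of Prm1, lie near 0.

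Calls were spread unevenly over signal. The probes were divided into equal bins by mean signal. The bin of lowest signal held no call in limma, the next held 198 rises and 68 falls, the one after it 477 rises and 207 falls, and the bin of highest signal 150 rises and 58 falls. The lowest bin spans means of 4.34 to 4.69 over both genotypes, and no value of a compared probe fell below 4.17. A 2-fold difference could therefore hardly occur in it. The 5320 probes detected on exactly 1 of the 6 arrays, just inside the limit for inclusion, gave 0 calls in limma. Among the rises, 534 probes were detected on all 6 arrays and 116 on all 3 mutant but no control array. In all, 121 rises (14.7%) were detected on no control array. Among the falls, 232 were detected on all 6 arrays and 25 (7.51%) on all 3 control but no mutant array. The inclusion rule admits a probe seen in 1 genotype only, so the 13179 probes seen on all 6 arrays were also counted alone. Of them 5.81% were called, and 69.7% of those calls were rises.

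Several probes of the same gene mostly had estimates of the same direction, though for most genes no second probe was called. The array held 4803 genes with several probes among those compared. Some probes counted here are named only from the study's lists of differentially expressed genes, which favours probes that had changed. Of the 4803 genes, 279 had a probe that was higher and 133 a probe that was lower, and none had both. At least 2 probes were higher for 105 of the 279, and at least 2 lower for 41 of the 133. Of the 285 uncalled other probes of the genes with a rise, 233 had an estimate above 0, with a median of 0.33 log2. Of the 164 uncalled other probes of the genes with a fall, 140 had an estimate below 0, with a median of -0.41 log2.

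A RIKEN transcript on chromosome 19 and the transcription factor Sp5 led the rises. 2610016A17Rik, a transcript of no assigned function, measured 10.47, 10.93 and 10.52 (log2 normalized signal) in mutant replicates 1, 2 and 3, against 5.44, 5.83 and 5.30 in control replicates 1, 2 and 3. Its difference was 5.14 ± 0.21 log2 (standard error), or 35.2-fold (limma adjusted p = 6.06e-08). Sp5, on chromosome 2, encodes a zinc finger factor of the Sp family and is a known target of Wnt signalling. It measured 10.15, 9.44 and 9.64 in mutants and 4.94, 4.67 and 4.47 in controls, a difference of 5.05 ± 0.25 log2 or 33.1-fold (limma adjusted p = 2.3e-07). Its probe was detected on 1 of the 3 control arrays and on all mutant arrays. For both genes the groups lay far apart and the spread within a genotype was below 1 log2 unit.

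Tissue kallikreins were prominent among the rises. They are secreted serine proteases that mice encode in a cluster of closely related genes on chromosome 7. Of 10 members compared, 7 (70%) were higher in mutants and none lower, with a median of 1.56 log2. Among all 13365 genes taken with 1 probe each, 5.67% were called, 4.07% higher and 1.6% lower, with a median of -0.05. The study itself names members of this family, so the list is not independent evidence of its direction. Klk1b27 measured 9.71, 10.67 and 9.78 in mutants and 4.65, 5.15 and 5.34 in controls (4.96 ± 0.36 log2, limma adjusted p = 3.75e-06). Klk1b24 measured 8.79, 9.87 and 9.06 in mutants and 4.76, 4.45 and 4.67 in controls (4.65 ± 0.30 log2, limma adjusted p = 1.23e-06). Klk1b21 measured 9.36, 10.19 and 9.38 in mutants and 5.37, 5.07 and 6.25 in controls (4.01 ± 0.34 log2, limma adjusted p = 1.37e-05). Mutant replicate 2 was the highest array for all 3 genes, and no mutant value came near a control value.

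The other kallikreins moved less. Klk1b26, Klk1b9, Klk1b5 and Klk1 were higher by 1.81, 1.77, 1.35 and 1.19 log2. Klk1b8, with values of 10.60, 11.24 and 9.68 in mutants and 10.32, 10.51 and 9.98 in controls, differed by 0.20 (limma adjusted p = 0.885). Klk1b16 and Klk1b1, each detected on 1 mutant array and no control array, differed by 0.42 and 0.29 and were not called. Klk1b26, Klk1b9, Klk1b5 and Klk1b8 were highest in replicate 2 and lowest in replicate 3 in both genotypes. Only 3 of the 10 kallikreins were called without control replicate 3, and again 3 without mutant replicate 2. The calls of Klk1b26, Klk1b9, Klk1b5 and Klk1 were then lost, with limma adjusted p-values of 0.0902 to 0.099 for Klk1b26, 0.103 to 0.122 for Klk1b9 and 0.0725 to 0.0905 for Klk1. Klk1b5 lost its call in 5 of the 6 fits that left out 1 array (limma adjusted p of 0.0686 to 0.248). The genes are near-identical copies, and signal of a paralog on a probe cannot be told apart from that of its own gene. A second probe gave 0.40 log2 for Klk1b24 and 0.20 for Klk1b21 (neither called), and 2.52 for Klk1b27 (called). That of Klk1b21 had a mean signal of 4.68, in the bin of lowest signal.

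The promoters of the 3 kallikreins that rose most are shown because these genes moved together and sit in 1 cluster. The sequences are from RefSeq (GRCm38.p6, plus strand of chromosome 7) and each covers 100 bases ending just before the annotated start. Capitals mark the longest run of letters, 39 bases, that the 3 promoters share.
Klk1b27, chr7:44052190-44052289: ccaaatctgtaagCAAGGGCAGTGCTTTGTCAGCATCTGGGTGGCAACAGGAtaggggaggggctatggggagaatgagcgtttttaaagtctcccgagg
Klk1b24, chr7:44188136-44188235: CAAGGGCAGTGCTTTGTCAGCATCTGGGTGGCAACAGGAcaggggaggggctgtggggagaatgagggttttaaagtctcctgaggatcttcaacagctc
Klk1b21, chr7:44102192-44102291: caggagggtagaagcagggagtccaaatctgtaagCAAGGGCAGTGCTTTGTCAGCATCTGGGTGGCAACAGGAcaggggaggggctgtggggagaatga
The run ends 48 bases before the start of Klk1b27, 61 before that of Klk1b24 and 26 before that of Klk1b21. Of the 27025 promoters in the table, 3 hold it on either strand, all of them kallikreins. It does not divide called from uncalled genes. Klk1b1 and Klk1b16, which were not called, hold it with 1 and 2 mismatches, while Klk1b26, which was called, has 4 and Klk1 has 15. Aligned over their full promoters of 300 bases, the 3 genes were 78.5% to 83.4% identical, against a median of 77.3% over the pairs of 10 kallikrein promoters.

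Epha6 encodes a receptor tyrosine kinase of the ephrin system. By 1 probe it measured 8.90, 8.62 and 9.54 in mutants and 4.42, 4.54 and 4.68 in controls, where no array detected that probe. A rise against an undetected group is given as a lower bound, with the dim group set on each array to the lowest signal of a detected probe where its own was lower. For this probe of Epha6 it was at least 18.6-fold (limma adjusted p = 2.71e-07). A second probe of the gene, with a mean signal of 6.60 over the 6 arrays, differed by 0.89 log2 and was not called. Abcb4, the transporter that moves phosphatidylcholine into bile, measured 10.27, 9.78 and 10.18 in mutants and 5.83, 6.01 and 6.20 in controls (4.03 log2, or 16.3-fold). Epha6 and Abcb4 were chosen among calls whose groups did not overlap, so their separate ranges follow from that choice.

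Capn9, a calpain of the digestive tract, was higher by 3.99 log2 (15.9-fold) by 1 probe and by 1.41 by another. Evpl encodes envoplakin, which links desmosomes to the cornified envelope of skin. It measured 9.13, 9.34 and 8.86 in mutants and 5.52, 4.65 and 5.21 in controls, a difference of 3.99 log2. Cdkn1c, an imprinted gene for the cell cycle inhibitor p57, measured 10.59, 11.18 and 11.06 in mutants and 7.40, 7.90 and 6.84 in controls (3.65 log2, or 12.6-fold). Pcdh17, a protocadherin, and Car4, a membrane-bound carbonic anhydrase, were higher by 3.79 and 3.45 log2. 1520401A03Rik and 5430401F13Rik, RIKEN transcripts of no assigned function, were higher by 3.84 log2 and at least 8.83-fold.

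**Figure D2:**
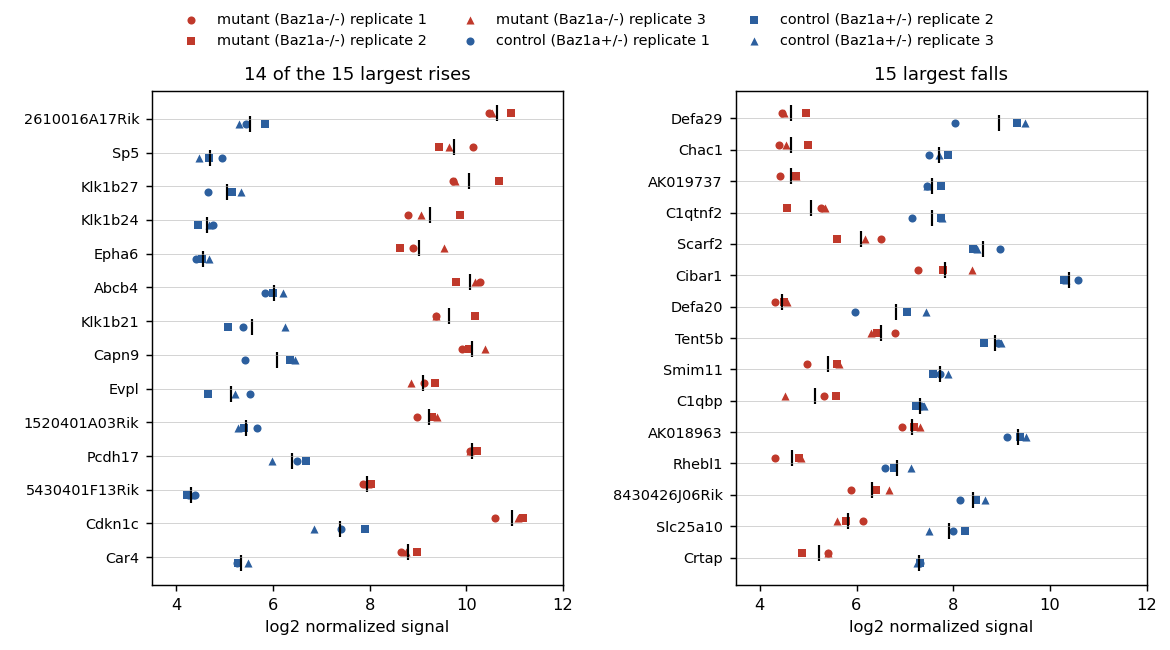
Values of 14 of the 15 largest rises (left) and of the 15 largest falls (right), 1 row a gene, as log2 normalized signal. Red marks are mutant and blue marks control arrays, the shape gives the replicate and the black bar the mean of a genotype. The genes were chosen among calls with groups apart, so in every row the mutant marks and the control marks occupy separate ranges. For Defa29 and Defa20 control replicate 1 is the lowest control.

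Of genes with a probe seen on all 3 mutant arrays and on no control array, the next largest bounds belonged to a mixed group. Detection and bound were read for that probe alone. Tcf7l1, a TCF/LEF transcription factor, measured 7.61, 7.51 and 7.77 in mutants and 4.51, 4.44 and 4.67 in controls, or at least 7.08-fold higher. Myo1f, a myosin of blood cells, was at least 6.36-fold higher, and Serpind1, the thrombin inhibitor heparin cofactor II, at least 5.95-fold. Flnc, the filamin of muscle, was at least 5.60-fold higher, Tlr9, a receptor for unmethylated CpG DNA, at least 5.50-fold, and the developmental factors Sall1 and Lhx1 at least 5.40-fold and 5.33-fold. Second probes of Sall1 and Lhx1 had mean signals of 6.88 and 7.01 over the 6 arrays. They were higher by 2.53 and 3.06 log2, so absence from controls holds for 1 probe of each gene.

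Falls were led by the alpha-defensin gene Defa29 and by Chac1. Defa29 belongs to the alpha-defensins of chromosome 8, antimicrobial peptides best known from Paneth cells of the gut. It measured 4.46, 4.95 and 4.49 in mutants, where 1 of 3 arrays detected it, and 8.03, 9.32 and 9.49 in controls. The difference was -4.43 ± 0.35 log2 (limma adjusted p = 6.41e-06). Its second probe gave -0.97 and was not called. Defa20 measured 4.31, 4.51 and 4.55 in mutants, all undetected, and 5.96, 7.04 and 7.44 in controls, or at least 3.99-fold lower. Of 3 alpha-defensins with a name on the platform, Defa20 was lower and the median was -1.0 log2, while the name of Defa29 comes from the study's annotation. These genes are close copies, so that cross-hybridisation between them cannot be told apart. Control replicate 1 had the lowest of the 3 control values for both genes, which were chosen among falls with groups apart.

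Chac1 encodes an enzyme that degrades glutathione and is a known target of the integrated stress response. It measured 4.40, 5.0 and 4.55 in mutants and 7.50, 7.90 and 7.70 in controls (-3.05 ± 0.19 log2, limma adjusted p = 9.61e-07). It was the only 1 of 21 integrated stress response genes that was called, and the median of that list was -0.11. Cibar1, a BAR domain protein of the ciliary base, measured 7.27, 7.80 and 8.40 in mutants and 10.58, 10.28 and 10.33 in controls (-2.47 log2), and its second probe gave -2.22. C1qtnf2 and Scarf2, a scavenger receptor, differed by -2.54 and -2.52. Tent5b, a cytoplasmic poly(A) polymerase, differed by -2.39, and Crtap, a cartilage-associated protein needed for prolyl hydroxylation of collagen, by -2.06 and -2.01 with its 2 probes. C1qbp and Slc25a10, which encode a protein of the mitochondrial matrix and the mitochondrial dicarboxylate carrier, differed by -2.24 and -2.08. The unannotated transcripts AK019737 and AK018963 differed by -2.88 and -2.19. Genes with a probe seen on all control arrays and on no mutant array included Syt5, a synaptotagmin, at least 3.26-fold lower, and Stard13, at least 3.16-fold lower.

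None of the genes listed for the spermatid's own structures was called. The 10 named probes with the highest signal in control spermatids, among them Tcte3, Prm1, Fabp9, Ldhc, Hspa2 and Ybx1, were called in neither direction. Tcte3, a dynein light chain gene of testis, measured 14.19, 14.19 and 13.90 in mutants and 14.25, 14.12 and 14.03 in controls. Prm1, which encodes protamine 1, measured 13.74, 13.57 and 14.01 in mutants and 13.96, 14.25 and 14.01 in controls (-0.28 log2, limma adjusted p = 0.729). Tnp1, for transition protein 1, measured 13.65, 13.36 and 13.38 in mutants and 13.52, 13.11 and 13.06 in controls. The ranges of the genotypes overlapped for each of these genes. The highest log2 value on any spermatid array was 14.25, so these probes lie at the top of the scale.

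Across 6 lists of spermatid genes (transition proteins, protamines and testis histones, the acrosome, the sperm tail, sperm ion channels, testis-specific serine kinases, and multicopy genes of the Y and X), 104 genes were compared. None was called in limma, 8 were higher and 10 lower at an unadjusted p under 0.05, and the median difference was 0.01 log2. Differences ranged from -1.12 for Dnaic2, a dynein chain of the axoneme (limma adjusted p = 0.0507), to 1.10 for H2al2a, a spermatid histone variant (limma adjusted p = 0.111). With no condition on fold, 4 of the 104 passed an adjusted p under 0.05. Tekt5, a tektin, and Kcnu1, the sperm potassium channel, were higher by 0.67 and 0.74. Adam1b, a sperm surface protein, and Rsph9, a radial spoke protein, were lower, with differences of -0.81 and -0.65. The sperm tail list had 1 gene called lower without control replicate 2, and again without mutant replicate 1. With the replicate number as a block it also had 1 (-1.17). The list of transition proteins, protamines and testis histones reached 1 call higher among the other settings. None of 27 meiotic prophase genes and none of 21 piRNA pathway genes was called. Their medians were -0.05 and -0.25. Of the meiotic genes, Ythdc2, an RNA helicase, was called higher in 3 of the 6 fits that left out 1 array (without control replicate 2 or 3 or mutant replicate 2, 1.06 to 1.24 log2) and Syce2, of the synaptonemal complex, in 1 (without mutant replicate 1, 1.05). Adding these lists gave 152 germ cell genes with 0 calls in limma, 11 higher and 18 lower at an unadjusted p under 0.05.

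Lists of BAZ1A's partners and of housekeeping genes held few calls. None of 9 genes of ISWI complexes was called and their median was -0.00. Of 25 transcription regulators of spermatids 1 was called, Esr2, the gene of estrogen receptor beta, which was higher by 1.89. Its second probe gave -0.08, at a mean signal of 4.67 in the bin of lowest signal. None of 51 ribosomal protein genes and none of 33 proteasome genes was called. Without mutant replicate 1, Rps3 and Rps15 were called lower (-1.14 and -1.05), and Rps3 also without control replicate 2 (-1.16). Of 76 respiratory chain genes 2 were lower, Cox14 and Atp5g2, with differences of -1.30 and -1.29. The call of Atp5g2 was lost without control replicate 2 or 3 or mutant replicate 2 or 3 (limma adjusted p of 0.0766 to 0.226). None of 16 heterochromatin genes was called, though their median was -0.35 and 3 were lower at an adjusted p under 0.05 with no condition on fold. None of 13 early genes that tissue dissociation is known to induce was called.

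Of 77 transcription factors of embryonic development outside the Hox clusters, 10 were higher and 3 lower, with a median of 0.21. Those higher included Sp5, Spdef, an ETS factor of secretory epithelia (3.41), Tcf7l1 (3.09), Lhx1, a LIM homeobox factor (3.06), Pou5f1, the pluripotency factor OCT4 (2.18), Meis1 (2.12) and Nkx6-1 (1.66). Pou5f1 measured 6.27, 6.82 and 6.69 in mutants, against 4.37, 4.41 and 4.53 in controls, where no array detected this probe. Its second probe was higher by 1.10. Foxq1, Gata6 and Irx2 were lower, with differences of -1.60, -1.55 and -1.17. Without control replicate 3 the call of Gata6 was lost (-1.19, limma adjusted p = 0.0645). Spdef, Lhx1 and Tcf7l1 are named by the study, so their place in the list is not independent of these arrays.

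Of 24 Hox genes, which set position along the body axis, 4 were higher and none lower, with a median of 0.15. Hoxa6, at 7.83, 7.79 and 7.54 in mutants and 6.09, 5.85 and 5.36 in controls, differed by 2.0 log2, and Hoxa5, Hoxc9 and Hoxd3 by 1.91, 1.72 and 1.47. The call of Hoxc9 was lost without control replicate 3 or mutant replicate 2 (limma adjusted p of 0.0519 and 0.0554). Of 40 genes of cell-cell junctions 6 were higher and none lower. They were Evpl, the claudins Cldn5 (3.44), Cldn23 (1.83) and Cldn3 (1.70), and the nectins Nectin1 (2.0) and Nectin2 (1.29). The call of Nectin2 was lost in 4 of the 6 fits without 1 array (limma adjusted p of 0.05 to 0.199). Of 26 serpins, a family of protease inhibitors, 6 were higher and none lower, with a median of 0.24. Apart from Serpind1 (3.02) these were the collagen chaperone Serpinh1 (2.14), the complement inhibitor Serping1 (1.25) and 3 antitrypsin genes.

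Of 18 interferon response genes 3 were higher, the transcription factor Irf1 (3.01) and the antiviral GTPases Mx2 (2.65) and Mx1 (1.29). Irf1 measured 8.07, 8.04 and 8.96 in mutants and 5.26, 5.56 and 5.38 in controls, and 2 of its 4 probes were called. The other 15 genes of the list were not called, and its median was 0.17. Of 31 collagens 5 were higher and 1 lower, led by Col26a1 (2.14) and Col8a1 (1.83). The fall was of Col2a1, the collagen of cartilage (-1.06), whose call was lost without any 1 of the 6 arrays (limma adjusted p of 0.0541 to 0.161). Of 22 imprinted genes 1, Cdkn1c, was higher and 2 were lower, Rasgrf1 (-1.86) and Slc22a18 (-1.04). The call of Slc22a18 was lost in 4 of the 6 fits without 1 array, where its difference was -1.05 to -0.77. Solute carriers had 10 rises and 6 falls among 246 genes (4.07% and 2.44%), and zinc finger genes named Zfp 9 rises and 1 fall among 227 (3.96% and 0.441%). Without mutant replicate 2 the falls among solute carriers were 2, without control replicate 3 they were 3, and without mutant replicate 1 they were 10. Olfactory receptors had 4 rises and 1 fall among 294 genes (1.36% and 0.34%), and keratins and genes of the cornified envelope no rise and 1 fall among 44. Olfr303 was the largest of them at 2.90, with 10.27, 10.61 and 10.37 in mutants and 7.51, 7.73 and 7.38 in controls.

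**Figure D3:**
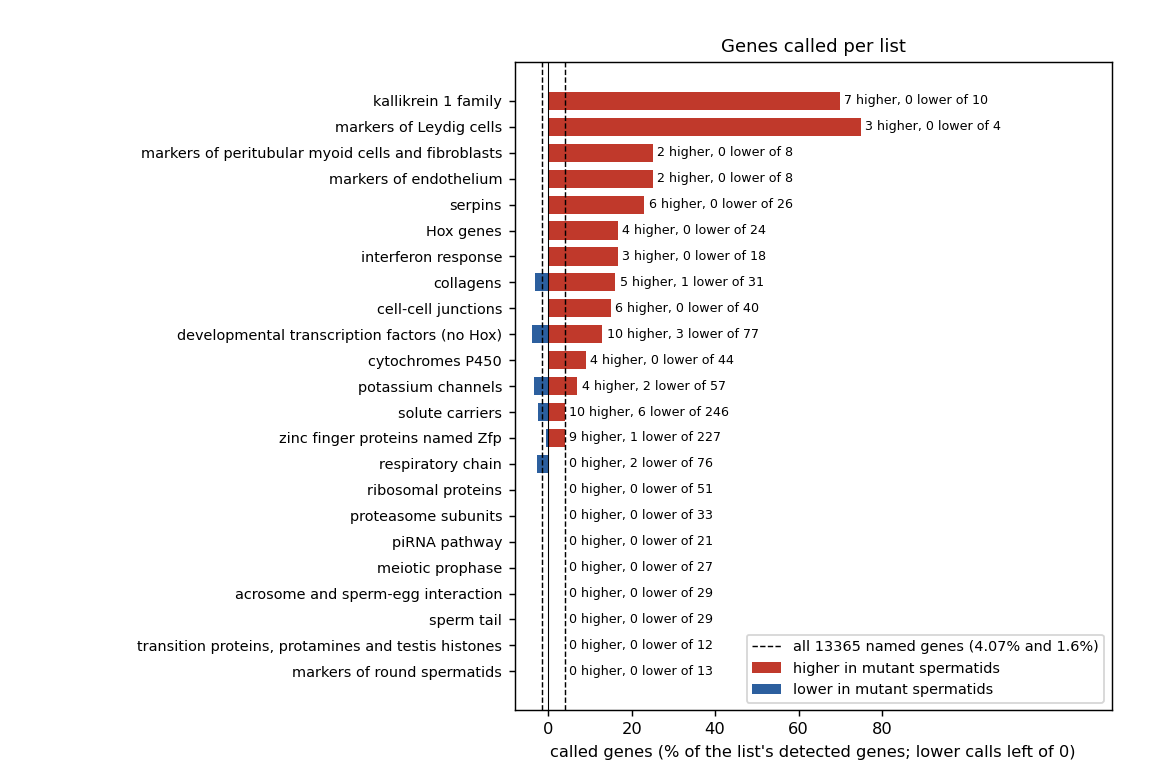
Share of each list's compared genes that was called, in percent, with rises to the right of 0 in red and falls to the left in blue. The dashed lines give the share among all 13365 named genes, 4.07% higher and 1.6% lower, and the number of genes stands at each bar. Kallikreins (7 of 10) and Leydig cell markers (3 of 4) have the longest bars, while the lists of germ cell genes have none.

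The marker genes of round spermatids were at high signal in both genotypes. None of 13 was called, and their mean log2 signal was 11.84 to 12.03 on mutant arrays and 11.71 to 11.91 on control arrays. In such bulk samples fewer cells of a type and less RNA per cell cannot be told apart. Markers of spermatocytes (0 of 9 called) averaged 9.30 to 9.62 in mutants and 9.37 to 9.76 in controls. Markers of spermatogonia (0 of 6 called) averaged 5.13 to 5.50 in mutants and 5.43 to 5.55 in controls.

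Some markers of somatic testis cells were higher in mutants. Of 10 Leydig cell markers 6 were not among the probes compared, 3 of the other 4 were higher and their mean was 6.55 to 7.69 in mutants and 5.34 to 6.32 in controls. Cyp17a1, a steroidogenic enzyme, measured 8.67, 7.62 and 8.61 in mutants and 6.56, 5.20 and 6.66 in controls (2.14 log2, limma adjusted p = 0.0328). Its call was lost in 5 of the 6 fits that left out 1 array (limma adjusted p of 0.0695 to 0.167). Cyp11a1 measured 6.03, 5.65 and 5.95 in mutants and 4.39, 4.78 and 4.45 in controls, where no array detected it. It was at least 2.10-fold higher (limma adjusted p = 0.000441), and its call held in every fit without 1 array. Hsd11b1 was higher by 1.11 log2, and its call was lost in 2 of those fits (0.92 and 0.96 log2). The median of the 4 genes was 1.22 log2. Insl3, the defining hormone of Leydig cells, measured 10.61, 7.42 and 10.18 in mutants and 9.51, 6.78 and 9.02 in controls, a difference of 0.95 ± 0.90 that was not called. Its ranges overlapped, and replicate 2 was lowest in both genotypes, as it was for Cyp17a1. Klk1b27, Klk1b24 and Klk1b21 were highest in mutant replicate 2. The Leydig list had 1 rise without control replicate 3, and 1 without mutant replicate 3. Some tissue kallikreins are known from mouse Leydig cells, and the part of these cells in the kallikrein result was not tested.

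Of 8 genes that mark peritubular myoid cells or fibroblasts 2 were higher, Igfbp7 and the proteoglycan Lum (3.09 and 2.97), and the list averaged 6.43 to 6.49 in mutants and 5.33 to 5.52 in controls. A second probe gave 0.18 for Igfbp7 (not called) and 2.70 for Lum (called). That of Igfbp7 had a mean signal of 4.56, in the bin of lowest signal that left little room for a difference. Lum measured 8.60, 9.53 and 8.73 in mutants and 5.66, 6.21 and 6.03 in controls, while the smooth muscle myosin Myh11 was detected on no mutant array and 1 control array. Of 8 endothelial markers 2 were higher, Cldn5 and Egfl7 (3.44 and 1.94), with means of 5.80 to 6.28 in mutants and 5.08 to 5.46 in controls. The call of Egfl7 was lost without control replicate 3 (1.48 log2, limma adjusted p = 0.0569), and its other probes gave -0.13 and -0.42 and were not called. The probe at -0.42 had a mean signal of 4.65, in the bin of lowest signal. Of 7 macrophage markers 1 was higher, the lipopolysaccharide receptor Cd14 (2.71), with means of 5.66 to 5.91 in mutants and 5.21 to 5.26 in controls. Without mutant replicate 1 the macrophage list had 2 rises. The defining macrophage gene C1qa was detected on 1 mutant array and no control array. Of 6 Sertoli cell markers 1 was higher, Sox9 (1.21), with means of 5.88 to 6.28 in mutants and 5.74 to 6.22 in controls. Its call was lost without mutant replicate 3, where the difference was 0.93. Without the called genes, the endothelial means were 4.96 to 5.32 in mutants and 4.78 to 5.14 in controls and overlapped. Those of the myoid list were then 5.39 to 5.49 in mutants and 4.93 to 5.22 in controls, and those of the macrophage list 5.18 to 5.38 in mutants and 5.04 to 5.14 in controls, without overlap. A marker entered these means if any 1 of the 6 arrays detected it. Genes that entered through 1 genotype only, such as C1qa, can part the means by that rule, so the lack of overlap is no test. The cells had been sorted by Hoechst fluorescence. The study's microscopy counts scored sorted cells for a meiotic protein or for spermatid features. They classed nearly all cells of both genotypes as spermatids and list no class for somatic cells. Whether a small share of somatic cells was present was not tested. The part of such cells in the lists of collagens, serpins, junctions and interferon genes was not tested.

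**Figure D4:**
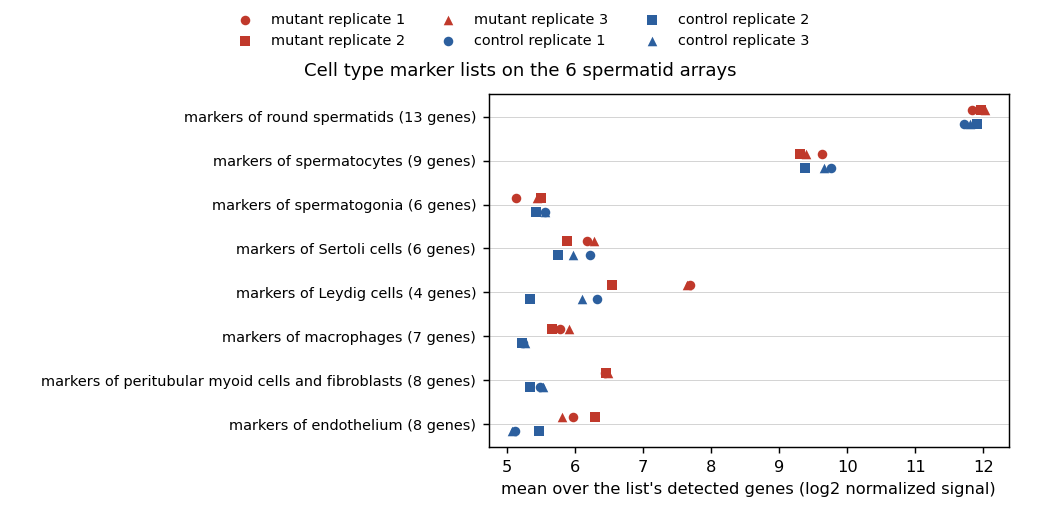
Mean log2 normalized signal of the compared genes of each marker list, 1 mark an array, mutants in red above controls in blue. Round spermatid markers lie between 11.71 and 12.03 in both genotypes. Mutant and control marks overlap for germ cell and Sertoli cell lists, and all mutant marks lie above all control marks for the Leydig cell, macrophage, myoid and endothelial lists. Without the called genes, which leaves Insl3 alone of the Leydig list, the Leydig and endothelial marks overlap.

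Calls occurred on every autosome. Autosomal probes numbered 19759, of which 671 were higher and 278 lower (4.80%). The share called ran from 2.54% on chromosome 13 to 7.02% on chromosome 1 and 8% on chromosome 16. On the X chromosome 2 probes were higher and 5 lower among 563 (1.24%), and on the Y chromosome 2 of 20 probes were higher. Chromosomes are those of the array's named genes, so unnamed probes have no place in these counts.

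Promoters of genes that rose held fewer CpG dinucleotides than those of genes that fell. RefSeq promoters of 300 bases (250 before and 50 after the start) were matched to 450 of 571 higher, 195 of 243 lower and 10779 of all 13365 genes. The median ratio of observed to expected CpG was 0.545 for rises and 0.776 for falls, against 0.703 for all genes compared. A ratio of at least 0.6 was found in 46% of the promoters of higher genes, 73.8% of those of lower genes and 60.5% of all. Among 75 promoters of genes with a rise on a probe that no control array detected, 37.3% had such a ratio. Motifs were searched as letters on both strands, and a match is no evidence of a site. GGGCGG, the GC box, which itself holds a CpG, occurred in 48% of promoters of higher genes, 65.6% of lower genes and 55.7% of all genes compared. TATAAA, the TATA box, occurred in 9.33%, 7.69% and 9.57% of the same promoters. CTTTGAA, the core of TCF/LEF sites, occurred in 6%, 4.10% and 4.13%. Among all 27025 RefSeq promoters, expressed here or not, the median CpG ratio was 0.389, GGGCGG occurred in 35.9%, TATAAA in 14.2% and CTTTGAA in 5.26%. These shares are a description, with no test.

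The same probes were then read in spermatocytes of these mice. The spermatocyte arrays shared the normalization and the model, and so the array weights and the estimate of spread, with the spermatid arrays. Mutant replicates 2 and 3 were set against 3 controls, since mutant replicate 1 was left out of the fit by the study for an inferred content of spermatids. Of the 24862 probes 111 (0.446%) were called, 70 higher (0.282%) and 41 lower (0.165%). Probes higher in mutant spermatids had a median spermatocyte difference of 0.30 log2. Of them 80.8% were above 0, against 48.4% of all probes, and 53 (6.42%) were called higher. Probes lower in mutant spermatids had a median of -0.39, with 13.5% above 0 and 23 (6.91%) called lower. In all, 76 of the 111 were called in the same direction in spermatids and none in the opposite. Sorted spermatocytes can hold some spermatids of the same mouse, and the part of such cells was not tested.

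Mutant arrays differed in size of shift. Over the probes called higher in spermatids, the median above the control mean was 1.29, 1.72 and 1.36 log2 on mutant spermatid arrays 1, 2 and 3. It was 0.15 and 0.46 on mutant spermatocyte arrays 2 and 3. The probes were chosen on the spermatid arrays, which favours larger medians there. The study's microscopy counts of the sorted cells gave array 3 the lower spermatocyte purity of the pair, and the part of purity in the shift was not tested. Over the probes called lower, the medians were -1.15, -1.32 and -1.28 in mutant spermatids and -0.24 and -0.53 in mutant spermatocytes. Control arrays of both cell types lay between -0.06 and 0.05.

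Some genes were called in both cell types and others in spermatids alone. Evpl differed by 3.57 log2 in spermatocytes (limma adjusted p = 0.000103) and Cldn5 by 3.11 (limma adjusted p = 7.35e-05), close to their spermatid values of 3.99 and 3.44. 2610016A17Rik differed by 3.62 in spermatocytes and Cdkn1c by 2.79. Among falls, AK019737, AK018963 and Crtap were also lower in spermatocytes, with differences of -2.40, -2.05 and -1.70. Chac1 and Defa29, in contrast, differed by 0.05 and -0.08 in spermatocytes. Whether the effect of genotype differed between cell types was tested directly, as an interaction. It was called for 43 probes (0.173%). The effect was higher in spermatids for 37 (0.149%) and lower for 6 (0.0241%), and 36 and 6 of these were among the rises and falls in spermatids. The arrays of both cell types came from the same mice, and with the mouse as a random block, an alternative chosen after seeing the data, 58 probes were called, among them all 43. This count was 15, 19 and 28 without control spermatid replicates 3, 2 and 1, and 67 and 22 without mutant spermatid replicates 1 and 2.

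**Figure D5:**
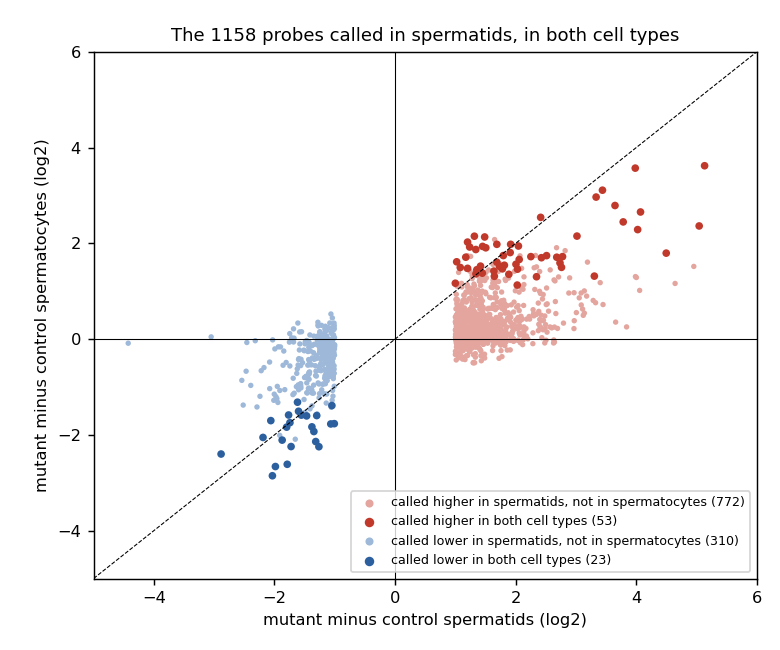
The 1158 probes called in spermatids, by log2 difference, mutant minus control, in spermatids (horizontal) and in spermatocytes (vertical, 2 mutant and 3 control arrays). The dashed line marks equal differences. Darker points (53 red and 23 blue) were called in both cell types, and paler points (772 and 310) in spermatids alone. Between the dashed line and the horizontal line at 0 lie 896 of the 1158 points. The points were chosen by their spermatid difference, which favours smaller values in spermatocytes. The share over all probes was not counted.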

How the data were processed

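RNA of sorted round spermatids and spermatocytes was hybridised by the authors to Illumina MouseWG-6 v2.0 arrays, 1 array a mouse and cell type. The deposited probe-level table holds intensity values, the mean bead signal per probe, neither background-corrected nor normalized, exported per the study's methods with BeadStudio, while the submitters' processing notes name GenomeStudio 2011.1. The same table holds a detection p-value per probe and array, as deposited, against the array's negative controls. The deposited value table of the authors holds log2 values of the same 12 arrays, which per the study's methods were corrected by normexp with control probes and quantile normalized with limma (version 3.12.1 in the notes). The authors' own fold changes and p-values were not used. No sample column was left out of the tables.

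The values reported here were recomputed from the intensities with limma 3.58.1 in R 4.3.3. Normexp correction took the negative controls as inferred from the detection p-values, with an offset of 16, since the control probe table was not used here. The 12 arrays were quantile normalized. The recomputed log2 values differed from those deposited by at most 0.0458. Poor-quality probes, which the study removed, were kept. Probes with a detection p under 0.05 on any of 11 arrays were tested (28751). The linear model had 4 groups (genotype by cell type) and array weights. Mutant spermatocyte replicate 1, which the study left out, was normalized but not fitted. A call needed a fold of at least 2 and a Benjamini-Hochberg adjusted p under 0.05. Scripts were tested on simulated data.

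Gene names came from the platform annotation for 20396 probes and from the study's annotation for 440, and 4026 had none. The study's annotation is that of its lists of differentially expressed genes, so it names only probes on those lists. Lists used platform names only, and each gene was represented by its probe of highest mean. Genes named in the text were the 15 largest rises and falls among named genes with groups apart, of which 1 rise is not reported here, the 10 largest lower bounds in each direction, the 10 most abundant genes, the genes called in lists and genes named by the study. Member probes, lists and tests were chosen with earlier results of these data known. Alternatives changed the background correction, the normalization, the detection filter, the samples and weights of the fit, the call rule and, in turn, each spermatid array, and a fit with the mouse as a random block was added after seeing the data.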

Additional observations from a re-analysis of the deposited data

Results flagged for a closer look

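For 12 of the genes with the largest changes the effect of genotype differed between the cell types (limma interaction, spermatid minus spermatocyte effect, in log2). Among rises this difference was 3.59 for 1520401A03Rik (adjusted p = 0.0225), 3.48 for Klk1b24 (0.0164), 3.44 for Klk1b27 (0.0434), 3.30 for 5430401F13Rik (0.000558), 2.73 for Car4 (0.00552), 2.70 for Epha6 (0.0172), 2.68 for Sp5 (0.0225), 2.59 for Myo1f (0.0192), 2.36 for Tlr9 (0.0434) and 2.12 for Tcf7l1 (0.0119). Among falls it was -4.34 for Defa29 (limma adjusted p = 0.0119) and -3.10 for Chac1 (limma adjusted p = 0.00225). Sp5 and Epha6 were also called higher in mutant spermatocytes, by 2.37 and 1.80 log2.

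The mutant spermatocyte array that was left out of the fit carried the spermatid changes. Its median shift from control spermatocytes was 0.67 log2 over the probes called higher in spermatids and -0.56 over those called lower. The 3 control spermatocyte arrays lay between -0.04 and 0.03 over the higher and between -0.04 and 0.05 over the lower probes. The left-out array lay beyond all 3 control spermatocyte arrays for 14 of the 15 largest rises and 13 of the 15 largest falls. The share of all compared probes beyond the controls was not counted, so these counts have no baseline. Over all compared probes the median shift of this array was -0.05 log2. The study left this array out for its content of spermatid RNA, and how much of the shift comes from it was not tested.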

How the results depend on the processing

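Across all settings no probe was called in opposite directions. Without background correction 252 probes were higher and 55 lower in mutant spermatids, with 35 called in spermatocytes. An offset of 50 gave 425, 128 and 58. Testing against a fold of 2 (treat) gave 110 higher and 24 lower in spermatids, 5 in spermatocytes and 1 for the interaction. A fold of 1.5 gave 909 lower. Median scaling gave 174 calls in spermatocytes, and no detection filter gave 16 for the interaction. Leaving out 1 spermatid array gave 561 to 927 higher, 246 to 439 lower, 84 to 99 in spermatocytes and 15 to 67 for the interaction. Normalizing or fitting the spermatid arrays alone gives no spermatocyte or interaction value. The fit of the spermatid arrays alone, whose spread comes from them only, gave 712 higher and 300 lower. The share of calls that were rises was 71.2%, and was 82.1% without background correction and with treat, 76.9% with the offset of 50 and 57.6% at a fold of 1.5. Apart from the interaction under the block given next, the other counts over all probes stayed within 1.5 times.

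Same-numbered mutant and control spermatid arrays deviated together only weakly (correlations 0.321, 0.0775 and 0.150), and mutant replicate 3 correlated best with control replicate 2. With the replicate number as a block (replicate block), 824 probes were higher and 340 lower in spermatids, with 154 in spermatocytes and 90 for the interaction. With the mouse as a random block, added after seeing the data, the counts were 821, 330, 112 and 58.

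Of the 145 called among 155 named probes, 78 lost their call without background correction, 56 with the offset of 50 and 90 with treat. Leaving out 1 array lost 38 in all, 33 of them without control replicate 3. The bin of probes with the lowest signal held no call under the reported setting. That bin left almost no room for a 2-fold difference in either direction, and a fall from so low a signal was not detectable.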

Other observations

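Other groups of genes were looked at after their values had been seen, and are given as counts without a test. Their probes include those named only from the study's lists of differentially expressed genes. Of 9 genes for SMAD proteins, which carry TGF-beta and BMP signals, and the SMURF ligases, 4 were lower in mutant spermatids and none higher, with a median of -0.91 log2. Among all genes 1.6% were lower and 4.07% higher. Smad4, the common partner SMAD, measured 6.07, 5.68 and 5.72 in mutants and 8.24, 6.95 and 7.44 in controls (-1.68). Smad5 differed by -1.62 and -1.02 with its called probes and Smurf2 by -1.34, -1.18 and -1.10. Smad6, an inhibitory SMAD, differed by -1.50, while its other probe gave 0.05. The called probes of Smad4, Smad6 and Smurf2, and that of Smad5 at -1.62, are named only from the study's lists of differentially expressed genes. Such naming favours changed probes, while the shares among all genes used platform names, so the counts cannot be set against them.

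Genes of protein glycosylation and secretion also held falls. Of 30 genes that build or transfer the dolichol-linked glycan, taken with 1 probe each, 3 were lower and none higher, 21 had an estimate below 0 and the median was -0.27. Of all 13365 genes 55.0% had an estimate below 0. Dpagt1, which starts this glycan, differed by -1.40, Dolpp1 by -1.59 and -1.09, and Gmppa by -1.61 and -1.32, while 1 probe of Dad1 was higher by 1.36. Of 38 genes of traffic between endoplasmic reticulum and Golgi, 4 were lower and 1 higher, 29 were below 0, with a median of -0.21. Cope, a COPI coat subunit, had 3 probes lower (-1.16, -1.04 and -1.07) and Preb 2 (-1.32 and -1.53), while the COPII subunit Sec23a was higher by 1.15.

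Members of small families moved in opposite directions. Among gasdermins, Gsdmc2 was lower by 4 probes (-1.56 to -1.20) and Gsdmd, which forms pores in pyroptosis, was higher by 2 (2.51 and 2.46). Among genes that modify collagen, Crtap (-2.06) and Plod3 (-1.08) were lower, and the collagen chaperones Serpinh1 (2.14) and Fkbp10 (2.03) were higher. Fkbp10 measured 8.74, 8.83 and 8.87 in mutants and 6.91, 6.85 and 6.68 in controls.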
